A study of Rattus norvegicus with 48 samples.

Results

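Ligated rat liver slices given either of 2 multikinase inhibitors were compared with slices of sham-operated rats, to describe what remained of the difference that bile duct ligation makes. The comparison was defined by the labels alone: the mean of the BDL_Sora group (n = 10) and the BDL_Nint group (n = 10), each weighted equally, against the Sham_veh group (n = 9). These are 29 of the 48 libraries of the series, and 14775 of 32883 genes were abundant enough to be tested. Ligated slices with vehicle (BDL_veh, n = 10) are given beside them, as the size of the ligation difference without a compound.

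All of these groups are precision-cut liver slices, thin sections of living tissue kept outside the body, sequenced as total RNA. Sham_veh slices came from sham operation and received vehicle. BDL_veh, BDL_Sora and BDL_Nint slices came from bile duct ligation (BDL) and received vehicle, Sora or Nint. The labels give only these short forms, read here as sorafenib and nintedanib. They give no dose, no time in culture, and no strain, age or animal for any slice, so replicates may be slices of 1 liver, and p-values then measure only the spread between these samples. No group combines sham operation with a compound, so an action of either compound that does not depend on ligation cannot be told apart from one that does.

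Ligation of the bile duct stops bile flow, and the liver responds with injury of hepatocytes, growth of bile ductules, inflammation and deposition of collagen by myofibroblasts derived from stellate cells and portal fibroblasts. Sorafenib blocks RAF kinases and receptors of vascular endothelial and platelet-derived growth factors. Nintedanib blocks receptors of vascular endothelial, fibroblast and platelet-derived growth factors and is used in lung fibrosis. In a slice from a ligated animal, the injury is already in place when a compound is added.

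The genes carry Ensembl IDs only, and no ID had a symbol in the reference used here, so neither the markers of liver cell types nor the gene lists for fibrosis pathways could be read. The labelled tissue was therefore not checked against markers. Genes are described instead by how they behaved, how abundant they are, whether the authors list them as protein coding, and by classes of RNA. In bulk tissue, fewer cells of a type and less RNA per cell cannot be told apart.

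Total counts ran from 12249470 to 29596987 over the 29 libraries, with group medians of 16766306 in Sham_veh, 14632850 in BDL_Sora and 13629248 in BDL_Nint. At these depths 3 counts, taken as the limit that a count of 0 allows, equal 0.101 to 0.245 CPM, the count of a gene scaled to a common library total. Sham_veh libraries 1, 5 and 9 stood apart: protein-coding genes took 44.9% to 48.1% of their mapped alignments, against 52.0% to 53.1% in the other 6. BDL_Sora libraries 1 and 3 stood apart in overall profile, as given with the axis below. Counts called against sham at any size and the position on that axis are given with and without these libraries. Counts set against both references are also given without BDL_Sora libraries 1 and 3. Switched genes and genes back near sham are given only with all libraries.

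Under both compounds the libraries lay close to the ligated vehicle profile. On a line through the mean sham profile (0) and the mean ligated vehicle profile (100), drawn in log2 CPM over all 14775 genes, the BDL_Sora libraries lay at 83.7 to 94.6 with a median of 89.2. The BDL_Nint libraries lay at 89.9 to 97.2 with a median of 92.5. Sham libraries, each scored against a line drawn without it, lay between -6.37 and 8.03, and vehicle libraries between 96.0 and 103. No compound library came near the sham range, and 1 of the 20, BDL_Nint library 7, reached into the vehicle range.

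The group means were 89.5 ± 2.99 (SD, n = 10) for BDL_Sora and 92.5 ± 1.98 (SD, n = 10) for BDL_Nint. BDL_Nint stood 2.98 points closer to ligated vehicle slices (permutation test with 100000 draws, two-sided, p = 0.0131, adjusted p = 0.0188 over 82 tests of library measures). The highest BDL_Nint library, number 7, lay at 97.2, and the lowest BDL_Sora library, number 6, at 83.7; the latter is also the deepest library of all. TMM factors, which rescale libraries for their composition, underlie these values; scaled by total counts alone, the means were 89.4 ± 2.84 and 92.8 ± 2.30 (SD, n = 10 each). Without sham libraries 1, 5 and 9 they were 89.3 ± 2.98 and 92.4 ± 1.97 (SD, n = 10 each). Vehicle libraries 3 and 6, on which a count given below depends, lay at 102.8 and 103. They enter the vehicle mean, and the line was not redrawn without them.

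The compound libraries also lay off the line. Distance from the line, as a share of its length, was 33.8 ± 6.42% (SD, n = 10) in BDL_Sora and 33.8 ± 3.99% (SD, n = 10) in BDL_Nint. It was 27.8 ± 3.57% (SD, n = 9) in sham and 21.1 ± 4.83% (SD, n = 10) in vehicle libraries, each scored against a line drawn without it. For the mean profile of the 10 BDL_Sora libraries the distance was 27.0%, and for the BDL_Nint mean 27.7%. BDL_Sora libraries 1 and 3 lay farthest off, at 46.6% and 42.9%, and were also the highest of their group along the line, at 92.7 and 94.6. Without them BDL_Sora lay at 88.4 ± 2.24 along the line and 31.0 ± 2.99% off it (SD, n = 8), and its mean profile 25.5% off. BDL_Nint was then 4.02 points farther along the line, and its distance off the line 2.72 points larger. Leaving out the highest and farthest BDL_Sora libraries moves both differences this way by itself. No p-value is therefore given for them.

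**Figure D1:**
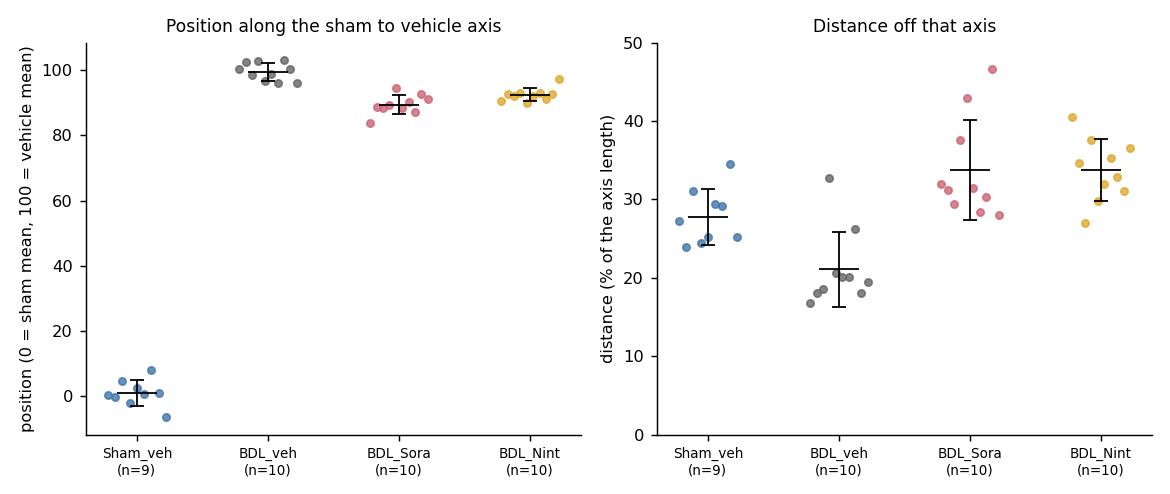
Each point is 1 library; bars are the group mean and SD. The left panel gives the position on the line from the sham mean (0) to the ligated vehicle mean (100), and the right panel the distance from that line as a percentage of its length. BDL_Sora and BDL_Nint libraries lie between 83.7 and 97.2, far from the sham libraries, and spread farther off the line than most vehicle libraries.

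Gene by gene, 12258 of the 14775 genes (83.0%) still differed between the compound mean and sham at an adjusted p under 0.05 in edgeR's quasi-likelihood test. Of these, 6052 (41.0% of those tested) were higher and 6206 (42.0%) lower than in sham slices. The near-even split turned with the scaling: total counts gave 7953 higher and 4137 lower, with a median log2 difference over all genes of 0.28 in place of -0.02. RLE factors gave 6366 and 5789, DESeq2 6402 and 5794, leaving out sham libraries 1, 5 and 9 gave 6122 and 5883, and leaving out BDL_Sora libraries 1 and 3 gave 6096 and 6030.

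Large differences, counted over all genes tested, ran upward under every scaling tried. With TMM factors, 3788 genes (25.6%) were called and at least 2-fold higher than in sham and 1582 (10.7%) at least 2-fold lower. At 4-fold or more there were 2479 higher (16.8%) and 256 lower (1.73%), and at 16-fold or more 926 (6.27%) and 39 (0.264%). Total counts gave 2796 and 173 at 4-fold, and 1083 and 28 at 16-fold. The upward excess did not hold for abundant genes with TMM factors. At a mean of 100 to 1000 CPM over all 48 libraries, 217 genes were at least 2-fold higher and 296 lower. Total counts gave 276 and 124 in that class. Of the genes called higher, 3633 (24.6% of those tested) had their lowest compound library above their highest sham library, and 3056 genes called lower (20.7%) had the reverse.

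The compounds gave like counts on their own. BDL_Sora differed from sham in 5923 genes upward (40.1%) and 5957 downward (40.3%), and BDL_Nint in 5913 (40.0%) and 6042 (40.9%). At 4-fold or more these were 2473 (16.7%) and 252 (1.71%) genes for BDL_Sora, and 2500 (16.9%) and 268 (1.81%) for BDL_Nint. Vehicle slices differed from the same sham libraries in 5911 genes upward (40.0%) and 6235 downward (42.2%).

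Fewer genes were strongly lowered under the compounds than with vehicle, as counts side by side. At 4-fold or more below sham there were 441 genes (2.98%) in vehicle slices, beside the 252 in BDL_Sora and 268 in BDL_Nint. The strongly raised genes were close in number, with 2525 (17.1%) in vehicle slices. The 3 comparisons share the sham libraries, and the difference between their counts was not tested. The order of the lowered counts was the same with RLE factors (390 for vehicle and 236 for the compound mean at 4-fold), DESeq2 (394 and 233) and total counts (305 and 173).

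**Figure D2:**
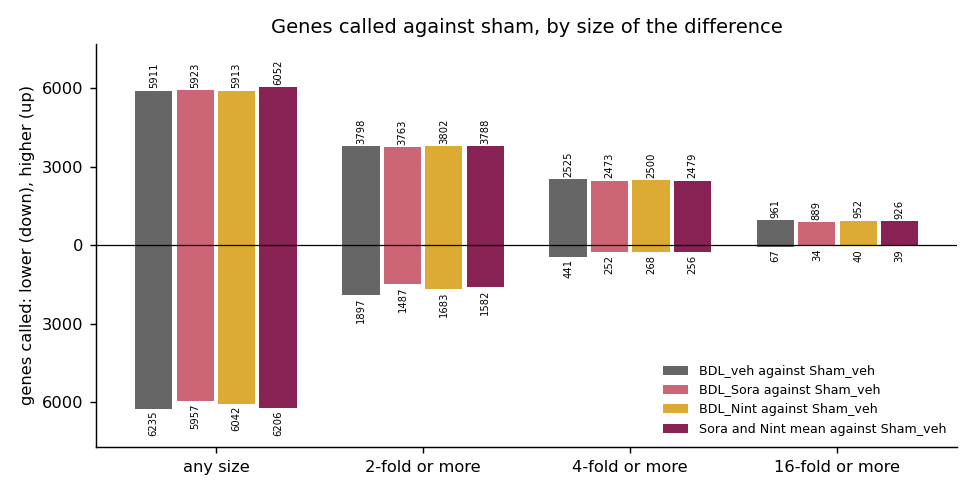
Bars give the number of genes called against Sham_veh (edgeR, adjusted p under 0.05, TMM factors), higher above the line and lower below it, at any size and at 2-fold, 4-fold and 16-fold or more. Bars for the 3 ligated groups and the compound mean are close in height upward, while at 4-fold or more the downward bar is 441 for vehicle and 256 for the compound mean.

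Many genes lay near sham. For 7919 genes (53.6%) the 95% interval of the log2 difference from sham fell within -1 and 1, so that a 2-fold difference in either direction lay outside it. Of these 5702 were called at smaller differences and 2217 were not called. In all, 2517 genes were not called against sham, and for 300 of them the interval reached beyond 2-fold, so that the data show neither a difference nor its absence. At the other end, 4213 genes had an interval wholly beyond 2-fold, 3200 of them higher and 1013 lower.

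The median size of the difference from sham over all genes was 0.70 on the log2 scale for the compound mean. It was 0.74 for vehicle, for which 7417 genes (50.2%) lay within 2-fold of sham.

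The direct test of the compound mean against vehicle asks for which genes the compounds moved the ligated level. It called 4526 genes (30.6%), 2508 higher (17.0%) and 2018 lower (13.7%) than in vehicle slices. limma-voom called more, 4230 higher and 3361 lower. Most of the shifts in edgeR's fit were small: 480 genes (3.25%) were called and at least 2-fold higher, and 336 (2.27%) at least 2-fold lower. Without vehicle libraries 3 and 6, 666 genes were at least 2-fold higher. For 12836 genes (86.9%) the 95% interval lay within 2-fold of vehicle. Among calls of any size, the excess of higher genes reversed with the scaling. RLE factors gave 2090 higher and 2478 lower, DESeq2 2247 and 2632, and total counts 1912 and 2646.

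Set against both references, the commonest outcome in edgeR's fit was a difference from sham with no call against vehicle; with limma-voom's larger number of calls this class was not counted. Among genes above sham, 3651 were not called against vehicle, with median log2 differences from sham of 1.26 under the compounds and 1.23 with vehicle. Among genes below sham, 4746 were not called against vehicle, with medians of -0.65 and -0.66. Against neither reference were 1852 genes called. Genes called against vehicle but not against sham numbered 415 above vehicle and 250 below it. A missing call does not show that levels were alike.

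Among genes called against sham, those moved part of the way back were the next group. Of those above sham, 1290 were below vehicle, with a median log2 difference from sham of 2.10 under the compounds and 2.88 with vehicle. Of those below sham, 982 were above vehicle, with medians of -0.74 and -1.11. In 229 of the former and 93 of the latter the compound mean was at least 2-fold away from both references, that is, clearly between them.

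With TMM factors and all libraries, genes pushed farther from sham were nearly as many on the upper side. The compound mean was above both sham and vehicle in 1111 genes, with median log2 differences from sham of 1.71 under the compounds and 1.02 with vehicle, and 218 of them were at least 2-fold above each. It was below both in 478 genes, with medians of -0.60 and -0.24, and 17 were at least 2-fold below each. Both tests share the compound libraries, so these counts are a description.

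The balance on the upper side depended on vehicle libraries 3 and 6, which had stood apart in earlier results of these data. Without them 1174 genes lay between sham and vehicle and 1336 above both, the reverse order. Without BDL_Sora libraries 1 and 3 there were 1360 between and 963 above both, and total counts gave 1863 and 1114. RLE factors gave 1499 and 1017, and DESeq2 1602 and 1118. On the lower side RLE factors gave 716 genes between and 630 below both, total counts 477 and 458, and leaving out BDL_Sora libraries 1 and 3 gave 966 and 429.

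Few genes that ligation had moved by 2-fold or more came back to near sham. With vehicle, 3798 genes were called at least 2-fold above sham and 1897 at least 2-fold below it, and the genes that follow are among these. In 88 genes (0.596% of those tested) vehicle was called at least 2-fold above sham, the compound mean was called below vehicle, and its interval lay within 2-fold of sham; 30 of them were no longer called against sham. Their median log2 difference from sham was 1.22 with vehicle and 0.55 under the compounds. In the other direction there were 139 genes (0.941%), 52 of them no longer called, with medians of -1.17 and -0.56. These genes were chosen by the values given, which are therefore a description.

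A stricter view takes genes that are on in 1 state and off in the other, with 1 CPM as the boundary. In 580 genes (3.93% of those tested) all 20 compound libraries were at 1 CPM or more and all 9 sham libraries under it, and 555 of them are in the authors' protein-coding table. Over these genes the median of the group means was 0.236 CPM in sham, 4.26 CPM in BDL_Sora, 4.80 CPM in BDL_Nint and 4.50 CPM in vehicle slices. Against vehicle, 156 of the 580 were called lower, 127 higher and 297 were not called.

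The reverse pattern, on in 9 sham and off in 20 compound libraries, held for 38 genes (0.257%), 34 of them in the coding table. Their median level was 2.79 CPM in sham, 0.227 CPM in BDL_Sora, 0.250 CPM in BDL_Nint and 0.207 CPM in vehicle slices. Of these 38 genes, 4 were called higher than in vehicle, 1 lower, and 33 were not called. With total counts the numbers were 682 switched on and 25 off, and with a boundary of 2 CPM 682 and 34.

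Taken group by group, genes on in every library and off in every sham library numbered 623 for BDL_Sora, 693 for BDL_Nint and 678 for vehicle. Genes off in every library and on in every sham library numbered 50, 48 and 67. No gene met the rule for being on in all 20 compound libraries and off in every sham and vehicle library. No gene was on in all vehicle libraries and off in every sham and compound library. At a boundary of 2 CPM these 2 patterns held for 1 and 8 genes.

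The direction of the remaining difference varied with abundance, taken as the mean level over all 48 libraries, most of them from ligated slices. Which scarce genes were tested depends on their ligated levels, as given below, so the shares that follow are a description. Of the 1146 genes under 1 CPM, 55.7% were called higher than sham and 17.5% lower. Of the 4117 genes at 1 to 10 CPM these shares were 52.9% and 26.3%. The order turned at 10 to 100 CPM (7659 genes), with 35.9% higher and 49.2% lower, and at 100 to 1000 CPM (1773 genes) it was 26.5% and 62.7%.

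Scaling sets where that turn falls. With total counts the 10 to 100 CPM class had 51.0% higher and 32.0% lower, while the 100 to 1000 CPM class still had fewer higher (40.4%) than lower (45.8%). Under all 4 scalings tried, the share called higher fell from the 1 to 10 CPM class to the class of 1000 CPM or more. Genes passed the filter on low values if they were abundant in any 1 group, so a scarce gene can be present through its ligated level alone.

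The most abundant class held 80 genes, at 1000 CPM or more. Under the compounds 20 of them were higher than sham and 48 lower, beside 15 and 54 with vehicle. At 2-fold or more below sham there were 21 under the compounds and 30 with vehicle; with total counts these were 14 and 12, the reverse order. The 100 most abundant genes of each library took 34.6 ± 1.66% (SD, n = 9) of the counts in sham and 27.8 ± 1.01% (SD, n = 10) in vehicle slices. They took 30.7 ± 1.44% in BDL_Sora and 29.8 ± 1.62% in BDL_Nint (SD, n = 10 each).

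Both compound groups were thus between the references in how much of the RNA the most abundant genes hold. Each was lower than sham (exact permutation test, two-sided, adjusted p = 0.000122 for BDL_Sora and 7.72e-05 for BDL_Nint). Each was also higher than vehicle (permutation test, adjusted p = 0.00032 and 0.00479). The difference between the compounds, -0.91 points for BDL_Nint, did not pass (permutation test, adjusted p = 0.237). The count of tested genes reaching 1 CPM was not called lower than vehicle in either compound: it was 12319 ± 81.8 (SD, n = 9) in sham, and 13550 ± 125 in BDL_Sora, 13595 ± 73.3 in BDL_Nint and 13496 ± 114 in vehicle slices (SD, n = 10 each). BDL_Nint exceeded vehicle by 99.1 genes (permutation test, adjusted p = 0.046), while the BDL_Sora excess of 54.2 did not pass (adjusted p = 0.355).

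**Figure D3:**
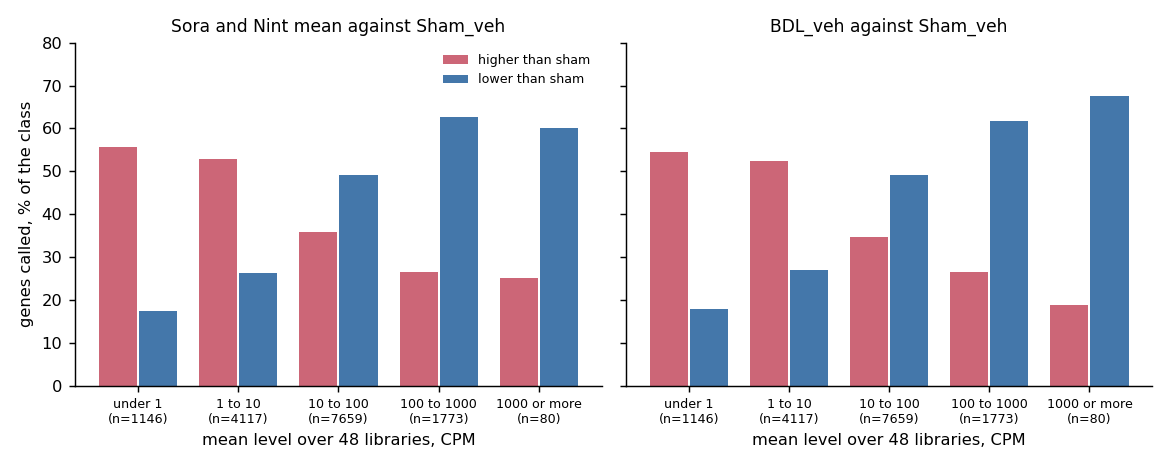
Bars give the share of genes called higher and lower than Sham_veh in each class of mean abundance over 48 libraries (edgeR, TMM factors), for the compound mean on the left and for ligated vehicle slices on the right; n is the number of genes in a class. The share called higher falls from 55.7% in the scarcest class to 25.0% in the most abundant one under the compounds. The height of the bars depends on the scaling in every class. Scarce genes can have passed the filter through their ligated level alone.

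Genes inside and outside the authors' protein-coding table differed mainly in the downward calls. Of the 13820 tested genes that it lists, 41.0% were higher and 43.2% lower than sham. Of 955 outside it 40.7% were higher and 24.6% lower. Total counts gave 53.8% and 28.9% inside, and 53.6% and 15.7% outside. The genes outside the table include noncoding genes, and their levels and lengths differ from those inside, so the gap was not tested.

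Classes of RNA and of alignments were read from the deposited quality metrics, as shares of all mapped alignments in a library. Mitochondrial transcripts, which encode subunits of the respiratory chain and the ribosomal RNAs of the organelle, took 2.02% to 2.46% with a median of 2.29% in sham libraries. They took 1.54% to 1.86% with a median of 1.71% in BDL_Sora and 1.37% to 1.64% with a median of 1.49% in BDL_Nint. Neither group overlapped sham (exact permutation test, two-sided, adjusted p = 4.93e-05 for each, from the smallest p the test can give, 1.08e-05).

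In the whole mitochondrial share both compounds lay between vehicle and sham, BDL_Sora nearer to sham than BDL_Nint. Vehicle libraries had 1.42 ± 0.0629% (SD, n = 10). BDL_Sora was 0.297 points above them (permutation test, adjusted p = 7.72e-05), and BDL_Nint 0.0878 points above them (adjusted p = 0.0374). BDL_Nint was 0.209 points below BDL_Sora (permutation test, adjusted p = 0.000969).

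Both the ribosomal RNAs of the organelle and the rest of its RNA lay between the references in BDL_Sora. The share of the ribosomal RNAs was 0.875% to 1.10% with a median of 1.01% in sham and 0.502% to 0.696% with a median of 0.621% in BDL_Sora, beside a median of 0.521% in vehicle slices. Without them, the mitochondrial share was 1.09% to 1.38% with a median of 1.28% in sham and 0.964% to 1.21% with a median of 1.10% in BDL_Sora, beside a median of 0.902% in vehicle. The 2 parts were each above vehicle in BDL_Sora (permutation test, adjusted p = 0.000294 and 7.72e-05), and the difference between them was not tested. In BDL_Nint the ribosomal RNA share, with a median of 0.520%, was not called different from vehicle (permutation test, adjusted p = 0.313), while the rest, with a median of 0.981%, was above vehicle (adjusted p = 0.014).

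Alignments to introns, which come mainly from RNA not yet spliced, took 24.4% to 31.1% with a median of 27.0% in sham libraries. They took 31.4% to 34.9% with a median of 33.2% in BDL_Sora, and 34.3% to 36.4% with a median of 34.8% in BDL_Nint. No compound library overlapped sham, although the highest sham library and the lowest BDL_Sora library were close (exact permutation test, two-sided, adjusted p = 4.93e-05 for each compound). Sham libraries 1, 5 and 9 held the highest sham values, 29.0% to 31.1%, and the other 6 had 24.4% to 27.2%.

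In the intronic share BDL_Sora, but not BDL_Nint, was called different from vehicle. Vehicle libraries had 35.6 ± 0.895% (SD, n = 10). BDL_Sora was lower by 2.64 points (its difference from vehicle was -2.64, permutation test, adjusted p = 0.000234), whereas the BDL_Nint difference of -0.40 points did not pass (adjusted p = 0.343). BDL_Nint exceeded BDL_Sora by 2.24 points (permutation test, adjusted p = 0.000117). Intronic share and mitochondrial share are parts of 1 whole, as are the exonic and protein-coding shares, and are not independent measures.

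Exonic and protein-coding shares were lower than sham in the same order of groups. The exonic share was 47.3 ± 2.26% in sham (SD, n = 9), 42.5 ± 1.17% in BDL_Sora, 40.0 ± 0.787% in BDL_Nint and 39.6 ± 0.945% in vehicle slices (SD, n = 10 each). The protein-coding share was 50.4 ± 3.44% (SD, n = 9), 46.4 ± 1.26%, 43.6 ± 0.973% and 42.7 ± 1.07% (SD, n = 10 each) in the same order. The sham mean rests on the split among its libraries: BDL_Sora libraries, at 44.6% to 47.99%, lay below the other 6 sham libraries and overlapped sham libraries 1, 5 and 9.

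Long intergenic noncoding RNA (lincRNA) was no closer to sham under the compounds. It took 0.968% to 1.249% with a median of 1.14% in sham libraries, 0.463% to 0.543% with a median of 0.518% in BDL_Sora and 0.550% to 0.662% with a median of 0.598% in BDL_Nint. Neither group overlapped sham, and they did not overlap each other. BDL_Sora was also below vehicle, which had 0.620 ± 0.0482% (SD, n = 10), and so farther from sham than without a compound (permutation test, adjusted p = 0.000117). For BDL_Nint the difference from vehicle did not pass (adjusted p = 0.443), and BDL_Nint exceeded BDL_Sora by 0.0903 points (permutation test, adjusted p = 0.000159).

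The small RNAs that guide modification and splicing were above sham in both compounds, and in most tests below vehicle. Small Cajal body RNAs (scaRNA), which guide modification of spliceosomal RNAs, took 0.0256 ± 0.00181% in sham (SD, n = 9), 0.0423 ± 0.00368% in BDL_Sora and 0.0411 ± 0.00247% in BDL_Nint (SD, n = 10 each), with no overlap between compound and sham libraries. Both compounds were slightly below vehicle, at 0.0452 ± 0.00195% (SD, n = 10; permutation test, adjusted p = 0.0493 and 0.00174).

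Small nuclear RNAs (snRNA), parts of the spliceosome, took 0.0117 ± 0.00181% in sham (SD, n = 9), 0.0175 ± 0.00155% in BDL_Sora, 0.0166 ± 0.000829% in BDL_Nint and 0.0190 ± 0.0012% in vehicle slices (SD, n = 10 each). Both compounds overlapped sham and exceeded it (exact permutation test, two-sided, adjusted p = 0.000102 for each), and both were below vehicle (permutation test, adjusted p = 0.0454 and 0.000159). Small nucleolar RNAs (snoRNA), which guide modification of ribosomal RNA, were above sham in both compounds (exact permutation test, two-sided, adjusted p = 0.00114 for BDL_Sora and 0.00108 for BDL_Nint), with overlap. Against vehicle BDL_Nint was lower (permutation test, adjusted p = 0.00355), and the BDL_Sora difference did not pass (adjusted p = 0.521). The deposited libraries are not described as small RNA libraries, so these shares cover only what a total RNA library retains of such short transcripts.

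The microRNA share was lower under both compounds than with vehicle, and lower than in sham. Sham libraries ran from 0.0157% to 0.0712%, with 0.0342% to 0.0712% in libraries 1, 5 and 9 and 0.0157% to 0.0450% in the other 6. BDL_Sora libraries ran from 0.0126% to 0.0175%, BDL_Nint from 0.0123% to 0.0153% and vehicle from 0.0150% to 0.0209%. BDL_Nint did not overlap sham, while BDL_Sora did (exact permutation test, two-sided, adjusted p = 4.93e-05 and 0.000102). The tests against vehicle gave adjusted p = 7.72e-05 for BDL_Nint and 0.000953 for BDL_Sora (permutation test).

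**Figure D4:**
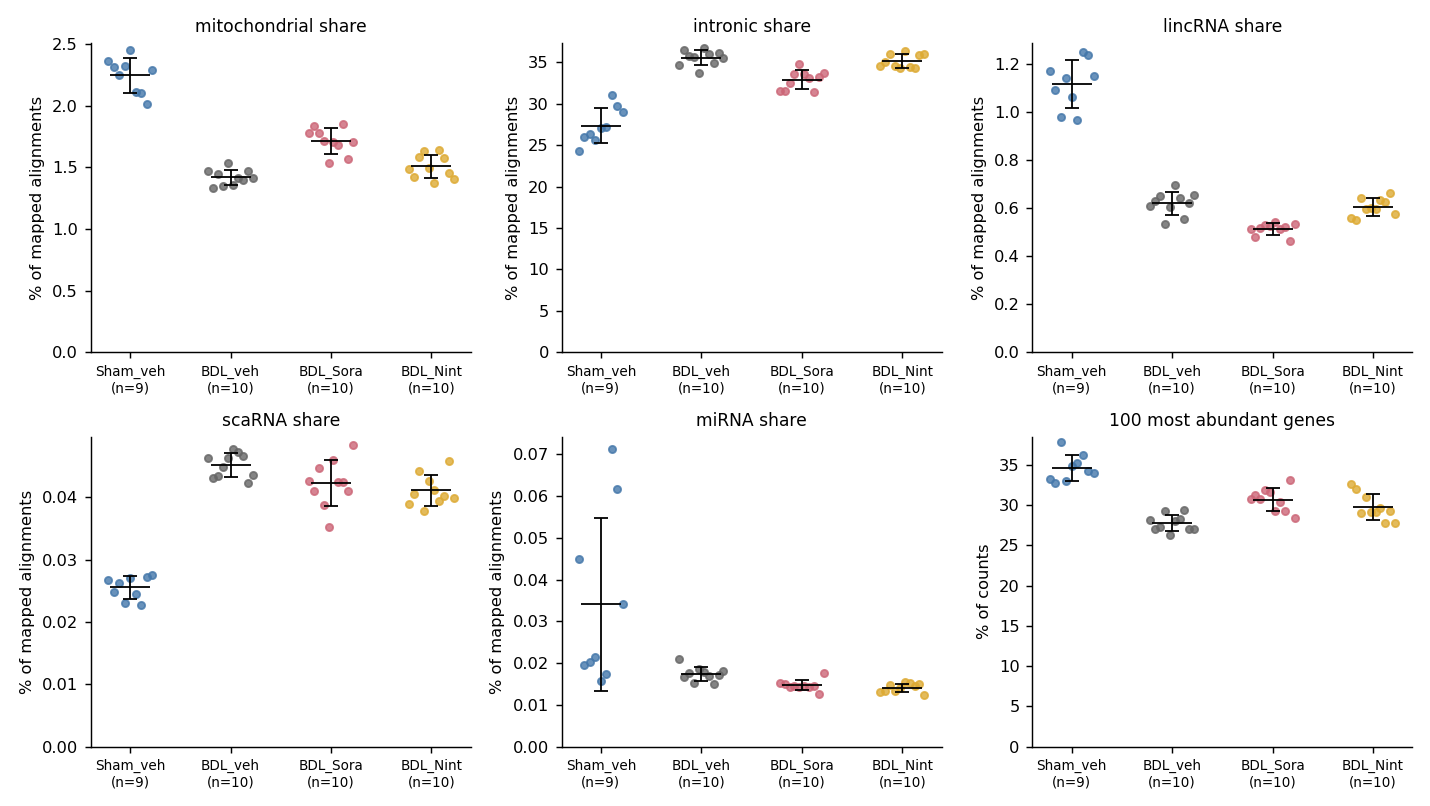
Each point is 1 library and bars are the group mean and SD; 5 panels give shares of mapped alignments in percent and the last the share of counts held by the 100 most abundant genes. Mitochondrial share and the share of the most abundant genes lie between sham and vehicle in BDL_Sora, whereas the lincRNA share of BDL_Sora, 0.463% to 0.543%, lies below both.

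4 genes, 2 on each side, are given in full because they had the largest fitted differences from sham with a mean of at least 5 CPM on their higher side and no overlap between groups. All of them are in the authors' protein-coding table, and no symbol is known for them here. They were chosen by the difference of the compound mean from sham, so their values against sham are a description. Their values against vehicle rest on the same compound libraries and are a description too. The difference between the compounds did not enter the ranking.

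ENSRNOG00000045683 had 0 counts in all 9 sham libraries. It ran from 3.58 to 25.9 CPM with a median of 6.80 CPM in BDL_Sora, and from 11.7 to 64.1 CPM with a median of 22.6 CPM in BDL_Nint. Pooled over the 20 compound libraries, the level was at least 681-fold higher than in sham, taken against 3 counts over the sham group. Vehicle libraries ran from 7.498 to 29.2 CPM with a median of 11.97 CPM, inside the range of both compounds together.

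The compound mean of this gene was 0.28 above vehicle on the log2 scale (SE 0.34, 95% interval -0.40 to 0.96). The compounds themselves differed, with BDL_Nint above BDL_Sora by a log2 value of 1.45 (SE 0.39, edgeR adjusted p = 0.0376). BDL_Nint library 7, at 64.1 CPM, is the highest and BDL_Sora library 3, at 25.9 CPM, the highest of its group.

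ENSRNOG00000003715 had 1 count in sham library 7 and 0 in the other 8 sham libraries. It ran from 5.36 to 10.2 CPM with a median of 7.25 CPM in BDL_Sora, and from 2.96 to 8.78 CPM with a median of 4.43 CPM in BDL_Nint. The ratio of the pooled compound level to sham was 768, with a counting interval from 138 to 30350 that covers counting error only. Vehicle slices had a median of 6.26 CPM, and the compound mean stood at a log2 difference of -0.20 from them (SE 0.14, 95% interval -0.48 to 0.08). BDL_Nint was below BDL_Sora by a log2 difference of -0.64 (SE 0.17, edgeR adjusted p = 0.0248).

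On the lower side, ENSRNOG00000050499 ran from 125 to 207 CPM with a median of 182 CPM in sham libraries. It ran from 0.325 to 1.61 CPM with a median of 0.55 CPM in BDL_Sora, and from 0.128 to 1.63 CPM with a median of 0.716 CPM in BDL_Nint. The log2 difference was -7.99 (SE 0.19), a ratio of 260 between sham and the pooled compound level, with a counting interval from 229 to 298. Vehicle slices had a median of 0.446 CPM, and the compound mean lay 0.26 above them on the log2 scale (95% interval -0.34 to 0.87).

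ENSRNOG00000048576 ran from 2.15 to 20.3 CPM with a median of 6.35 CPM in sham libraries. In BDL_Sora 1 count was seen over 10 libraries, and in BDL_Nint 5 counts, with 5 libraries at 0. Vehicle slices had 1 count over 10 libraries. The ratio of sham to the pooled compound level was 468, with a counting interval from 214 to 1277. At so few counts the ligated groups could not be ordered (BDL_Nint against BDL_Sora, edgeR adjusted p = 0.404).

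**Figure D5:**
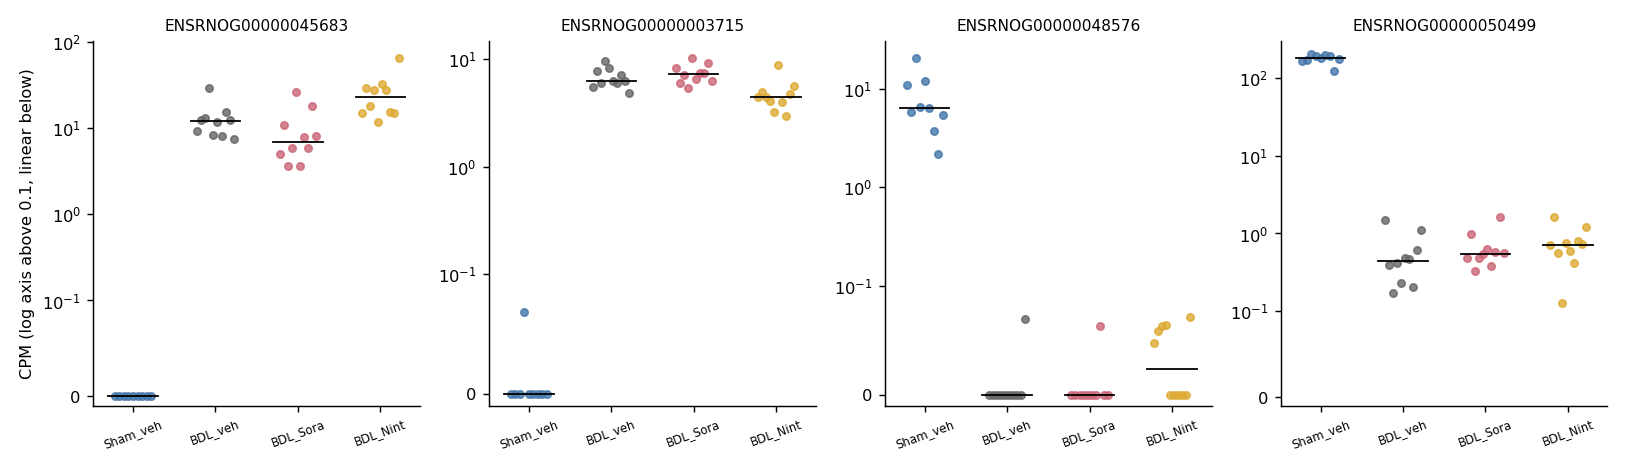
Each point is the level of 1 gene in 1 library, in CPM on an axis that is logarithmic above 0.1 and linear below; the short line is the group median. The 2 genes on the left are at or near 0 in sham and at 2.96 CPM or more in every BDL_veh, BDL_Sora and BDL_Nint library; of the 2 on the right, ENSRNOG00000050499 is at most 1.63 CPM and ENSRNOG00000048576 at most 0.0716 CPM in those libraries.

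Few genes were called different between the compounds whose mean is taken here. Tested against each other, BDL_Nint and BDL_Sora differed in 343 genes (2.32%), 203 higher in BDL_Nint (1.37%) and 140 lower (0.948%). At 2-fold or more there were 25 (0.169%) and 15 (0.102%). For 13643 genes (92.3%) the 95% interval of the difference between them lay within 2-fold. An unadjusted p under 0.05 in edgeR's quasi-likelihood test was seen for 2316 genes, so more may differ than were called. The calls between the compounds were not recomputed under other settings.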

How the data were processed

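RNA-seq libraries of rat liver slices were analysed from 1 deposited table of expected counts per gene, estimated by the authors with RSEM on genome build Rnor_6.0, per the submitters' processing notes, which also name edgeR. Neither label nor header names the aligner, the annotation release or the strand setting (not given in the sources used here), so overlapping, antisense and near-identical genes are uncertain. Total RNA was extracted with a 96-well kit, per the labels' protocols. A table of log2 CPM for 14418 expressed protein-coding genes, deposited by the authors, was used for membership and for 1 alternative. Quality metrics deposited by the authors, other values per library, gave the shares of mapped alignments.

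Expected counts, of which 8.02% were not whole (tolerance 1e-06), were rounded. edgeR 4.0.16 (R 4.3.3; filterByExpr by group, TMM, glmQLFit robust, glmQLFTest) was fitted to all 48 libraries with 1 coefficient per group. Libraries given SB525334 entered the filter, the TMM factors and the estimate of spread, and no comparison used their coefficient. Calls had a Benjamini-Hochberg adjusted p under 0.05 over 14775 genes. Levels are CPM with TMM factors, and a prior count of 2 entered the line from sham to vehicle. Measures per library were tested by two-sided permutation tests (SciPy 1.17.1, Python 3.11.15), exact for 9 against 10 libraries, with 100000 draws otherwise, adjusted over 82 tests. Scripts were tested on simulated data. Intervals are at the 95% level, and counting intervals and floors cover counting error only.

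No pair of libraries within a group matched within sampling noise (171 pairs, lowest chi-square per degree of freedom 3.94, genes with at least 20 counts). 0 columns of per-library values were left unused. None of the 47357 genes in the reference table (assembly GRCr8) carries an Ensembl ID; 0 of 32883 IDs matched, and the gene lists, markers and sequences were not used here. The rule for named genes then allowed at most 2 IDs in each direction, taken by size of the difference among called genes with at least 5 CPM and groups that do not overlap. The comparison, lists, rules and tests were chosen with earlier results of these data known. Alternatives were RLE factors, total counts, DESeq2 1.42.0, limma-voom and limma on the authors' log2 values (limma 3.58.1), other filters, fewer groups in the fit, a replicate block, plate column, and leaving out each library. Leaving out sham libraries 1, 5 and 9 or BDL_Sora libraries 1 and 3 was chosen after seeing the data.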

Additional observations from a re-analysis of the deposited data

Results flagged for a closer look

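Some libraries lay far from the rest of their group by Dixon's test, in 9 of 66 groups of values checked. Chance alone gives about 1 in 20 for independent values, whereas many of these measures are parts of 1 whole. BDL_Nint library 7 was the highest of its group on the line from sham to vehicle, at 97.2, and for ENSRNOG00000045683, at 64.1 CPM. BDL_Nint library 3 had the lowest intergenic share, 15.5%, and library 5 the highest share of non-uniquely mapped alignments, 8.76%. BDL_Nint library 1 had the highest level of ENSRNOG00000003715, 8.78 CPM, and sham library 7 the only sham count of that gene, 0.0685 CPM. BDL_Sora library 5 held the only count of ENSRNOG00000048576 in its group, 0.0633 CPM. A single count among libraries at 0 always meets this rule, so the flags for these single counts were fixed in advance. For ENSRNOG00000050499, sham library 1 was the lowest sham library at 125 CPM, and BDL_Sora library 1 the highest of its group at 1.61 CPM.

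The compounds differed from each other, by the direct tests, in the measures that follow, each given as BDL_Nint minus BDL_Sora. Shares of mapped alignments differed by -0.209 points for mitochondrial RNA, -0.068 for mitochondrial ribosomal RNA and -0.141 for the rest of the mitochondrial RNA. They differed by -2.76 points for protein-coding genes, -2.49 for exons, 2.24 for introns and 0.845 for intergenic sequence. They differed by 0.0903 points for lincRNA, -0.139 for miscellaneous RNA and -0.445 for non-uniquely mapped alignments. The position on the line differed by 2.98. The log2 difference was 1.45 for ENSRNOG00000045683 and -0.64 for ENSRNOG00000003715, and 343 genes were called different in all.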

How the results depend on the processing

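Leaving out each of the 29 libraries in turn kept the counts of the compound mean against sham at 5961 to 6139 higher and 6025 to 6201 lower, 3755 to 3850 at least 2-fold higher, 1490 to 1629 at least 2-fold lower, and 7755 to 7986 within 2-fold. Total counts lowered the downward counts: for the compound mean 4137 lower and 836 at least 2-fold lower, for BDL_Sora 815 at least 2-fold lower, for BDL_Nint 3954 lower and 866 at least 2-fold lower, and 25 genes switched off. A filter of 5 CPM, which tests fewer genes, gave 1008, 962 and 1083 genes at least 2-fold lower than sham for the mean, BDL_Sora and BDL_Nint, and against vehicle 281 at least 2-fold higher and 191 lower. With no filter 568 genes were at least 2-fold below vehicle. limma-voom called 4230 genes higher and 3361 lower than vehicle; the cause was not tested. For the 4 comparisons with sham or vehicle, the other recomputed totals stayed within 1.5 times their value. These are totals of genes called, at least 2-fold different or within 2-fold. Counts by abundance class and counts set against both references moved more in places. With total counts, genes below sham and above vehicle fell from 982 to 477. The log2 differences of the 4 named genes from sham, chosen for their size, lay between 8.41 and 10.99 for ENSRNOG00000045683, 7.06 and 9.50 for ENSRNOG00000003715, -8.81 and -7.43 for ENSRNOG00000048576, and -8.19 and -7.69 for ENSRNOG00000050499 over the settings that tested them; the filter of 5 CPM could not test the third.

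Replicate numbers follow the order of wells on the plate in all 5 groups. Deviations of libraries with the same number had correlations of -0.24 to 0.12 for BDL_Sora with sham. They were -0.28 to 0.17 for BDL_Nint with sham and -0.19 to 0.36 between the compounds. Correlations over 0.1 were seen in 1 of 9, 1 of 9 and 4 of 10 pairs. The own number was the best match in 1 of 9, 0 of 9 and 2 of 10. As the numbers are not said to mark an animal, these values cannot tell whether libraries share a liver. With the number as a replicate block there were 6015 genes higher and 6167 lower than sham. The shallowest library, at 12249470 counts, cannot tell a level under 0.245 CPM from 0.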
